A study of Drosophila melanogaster with 9 samples.

Results

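The non-amidase peptidoglycan recognition proteins (PGRPs) of Drosophila melanogaster are PGRP-LC, PGRP-LE, PGRP-LA, PGRP-LD, PGRP-LF, PGRP-SA and PGRP-SD, members of the family that sense or bind signals without cutting peptidoglycan. They were chosen by name, and all 7 were found among the 17562 gene identifiers of the deposited tables. Messenger RNA was measured in whole brains of adult females aged 4 to 6 days, 20 brains per library, in 3 groups of 3 libraries each. In the first group, called PGRP-LB E.cc15, PGRP-LB mutants had been exposed by mouth to E.cc15, a Gram-negative bacterium used as a gut pathogen of flies, for 16 h. In the second, WT E.cc15, wild-type flies had the same exposure. In the third, WT control, wild-type flies were not exposed. The series' design text gives a 24-hour diet of bacteria, against sucrose for controls, where the protocol gives 16 h. PGRP-LB encodes an enzyme that degrades peptidoglycan, and the design text states that the mutant accumulates peptidoglycan in the body cavity. The mutant columns of the deposited table carry the mark PGRP-LBD, whose last letter the labels do not explain, the strain background is not named, and no library of unexposed mutants was analysed here, so genotype and exposure cannot be told apart in the comparison of PGRP-LB E.cc15 with WT control. A whole brain mixes neurons and glia with any fat body and blood cells that stay attached, so in these bulk libraries more RNA per cell and more cells of a type cannot be told apart.

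Peptidoglycan of the diaminopimelic acid type, found in Gram-negative bacteria, is sensed at the cell surface by the transmembrane receptor PGRP-LC and inside cells by PGRP-LE. Both signal through the Imd pathway to the NF-kB factor Relish (Rel), which switches on antimicrobial peptide genes and also genes that dampen the pathway. PGRP-LF is one of those dampers, a membrane protein that does not bind peptidoglycan and pairs with PGRP-LC as a decoy, whereas secreted PGRP-SA, helped by PGRP-SD, starts the Toll pathway in the blood, and PGRP-SD has also been reported to aid Imd signalling.

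The genes sit on chromosome arms 3L and X in the BDGP6 annotation, where they were located by symbol (the build of the deposited files is not given in the sources used here). PGRP-LA (9334332 to 9338336), PGRP-LC (9338810 to 9348336) and PGRP-LF (9349609 to 9351489) follow each other on the plus strand of 3L, with 473 bases between PGRP-LA and PGRP-LC and 1272 bases between PGRP-LC and PGRP-LF. PGRP-LD (5780051 to 5784685) and PGRP-SD (7651180 to 7651900) lie elsewhere on the plus strand of 3L. On X, PGRP-SA occupies 11561643 to 11562779 on the plus strand, and PGRP-LE occupies 15801153 to 15803880 on the minus strand. PGRP-LC had 10 annotated transcripts, which the gene totals do not separate, and PGRP-LF and PGRP-SD had 1 each. The summed exon length ran from 721 bases in PGRP-SD to 3957 bases in PGRP-LD, so levels were compared between genes only per kb of exon.

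Values are normalized counts, whole numbers that the authors had already scaled within each of 2 tables, and they totalled 25276056 to 27791989 per library. The counted reads behind them, estimated from the spacing of the rounded values, came to about 19400000 to 30700000 per library. The same 3 WT control libraries stood in both tables with slightly different scaling, so both comparisons with WT control share them and every level below is set beside controls of its own table. PGRP-LB itself had 687, 1359 and 721 normalized counts in PGRP-LB E.cc15 libraries S1, S2 and S3, against 164, 120 and 151 in WT control; a gene total does not check the mutation, since the altered part of the gene is not given. The label of brain tissue was met by 15 neuron markers, none at 0, whose summed level was 393562 to 410532 normalized counts in PGRP-LB E.cc15, against 380536 to 434229 in WT control.

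The surface receptor PGRP-LC was higher in PGRP-LB E.cc15 brains, by nearly 6-fold, and overlapped the controls in WT E.cc15 brains. It had 2452, 4738 and 2462 normalized counts in PGRP-LB E.cc15 libraries S1, S2 and S3, against 559, 647 and 409 in WT control. All the mutant libraries lay above all the controls, with S2 far above the other mutant libraries. The difference was 2.53 ± 0.28 on the log2 scale (SE; 95% interval 1.86 to 3.20; 5.77-fold; limma adjusted p = 0.00177). In WT E.cc15 the receptor gene had 573, 556 and 534 normalized counts, against 566, 658 and 418 in WT control, and these ranges overlapped. That log2 difference was 0.04 ± 0.16 (SE; 95% interval -0.33 to 0.42; limma adjusted p = 0.966), and it turned to -0.14 without WT control S3, the lowest library.

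PGRP-LE, the cytoplasmic sensor, differed from WT control by less than the spread between libraries in either comparison. It had 620, 646 and 585 normalized counts in PGRP-LB E.cc15, against 538, 636 and 596 in WT control, a log2 difference of 0.07 (95% interval -0.16 to 0.29; limma adjusted p = 0.68). WT E.cc15 brains held 564, 575 and 548, against 545, 646 and 608 in WT control, a log2 difference of -0.09 (95% interval -0.29 to 0.11; limma adjusted p = 0.843). Relative to its mean, PGRP-LE had the narrowest spread of the 7 genes within PGRP-LB E.cc15, 617 ± 30.6 normalized counts (SD, n = 3).

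PGRP-LA, the neighbour of PGRP-LC on 3L, is a membrane protein thought not to bind peptidoglycan itself and has been described as a positive regulator of Imd signalling in barrier epithelia. It had 1020, 1108 and 895 normalized counts in PGRP-LB E.cc15, against 848, 925 and 698 in WT control, and the ranges overlapped. The log2 difference of 0.29 ± 0.13 did not pass the test (SE; 95% interval -0.01 to 0.60; limma adjusted p = 0.169). In WT E.cc15 it had 893, 799 and 790 normalized counts, against 859, 940 and 713 in WT control, a log2 difference of -0.01 (95% interval -0.27 to 0.25; limma adjusted p = 0.992) whose sign changed when single libraries were left out.

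PGRP-LF, the decoy partner of PGRP-LC, rose in both exposed groups. It had 603, 1127 and 594 normalized counts in PGRP-LB E.cc15, against 24, 33 and 21 in WT control, with every mutant library above every control. The log2 difference was 4.80 ± 0.30 (SE; 27.9-fold; limma adjusted p = 0.000165). WT E.cc15 libraries held 119, 152 and 118, against 24, 33 and 22 in WT control, again without overlap. There the log2 difference was 2.27 ± 0.25 (SE; 95% interval 1.69 to 2.85; 4.82-fold; limma adjusted p = 0.0274), the one call among the 7 genes in that comparison; it was lost, at adjusted p between 0.0721 and 0.252, when any 1 of the 6 libraries was left out. Exons of PGRP-LF overlap those of UGP on the opposite strand, and whether counting used the strand is not given. UGP had 2859 to 3861 normalized counts in PGRP-LB E.cc15, against 2323 to 3388 in WT control, and 3365 to 3765 in WT E.cc15, against 2372 to 3445 in WT control; its part in the PGRP-LF values was not tested.

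Among the secreted proteins, PGRP-SD had the widest change of the 7 genes. It had 11627, 17080 and 8372 normalized counts in PGRP-LB E.cc15, against 271, 213 and 148 in WT control, a log2 difference of 5.85 ± 0.30 (SE; 57.7-fold; limma adjusted p = 6.35e-05). Even the lowest mutant library stood far above the highest control. WT E.cc15 libraries had 1860, 1750 and 790 normalized counts, against 274, 216 and 151 in WT control, all of them above the controls, with S3 well below the other exposed libraries. The log2 difference of 2.72 ± 0.35 lay just outside the threshold (SE; 95% interval 1.89 to 3.54; 6.57-fold; limma adjusted p = 0.0543), and without WT E.cc15 S3 it was 3.11 (adjusted p = 0.0262). PGRP-SD lies within CG32373, a gene on the same strand with no shared exon, which had 334 to 395 normalized counts in PGRP-LB E.cc15, against 78 to 124 in WT control, and 131 to 186 in WT E.cc15, against 79 to 126 in WT control. Its exons also overlap CG7492 on the opposite strand, which had 2797 to 3161 normalized counts in PGRP-LB E.cc15, against 2953 to 3407 in WT control. The part of these neighbours in the PGRP-SD values was not tested.

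PGRP-SA, the circulating sensor that acts with GNBP1 upstream of Toll, had 1390, 1610 and 1192 normalized counts in PGRP-LB E.cc15, against 102, 102 and 54 in WT control. The groups stood far apart, at a log2 difference of 4.05 ± 0.26 (SE; 16.6-fold; limma adjusted p = 0.000174). In WT E.cc15 it had 239, 291 and 172 normalized counts, against 103, 104 and 55 in WT control. All exposed libraries were above all controls, yet the log2 difference of 1.44 ± 0.30 did not pass the test over the whole table (SE; 95% interval 0.72 to 2.15; 2.71-fold; limma adjusted p = 0.281).

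PGRP-LD, whose function is less well described, was close to the detection limit. It had 10, 6 and 24 normalized counts in PGRP-LB E.cc15, against 5, 11 and 15 in WT control. WT E.cc15 libraries had 17, 12 and 22, against 5, 11 and 16 in WT control. The ranges overlapped in both comparisons. The log2 differences were 0.25 (95% interval -1.18 to 1.67; limma adjusted p = 0.819) and 0.71 (95% interval -0.44 to 1.86; limma adjusted p = 0.784), and the first interval includes 2-fold changes either way, so a change of that size was not detectable at this depth. Exons of PGRP-LD overlap those of Pmi on the same strand and of Cralbp and asRNA:CR45026 on the other, each with at most 18 normalized counts in any library.

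**Figure D1:**
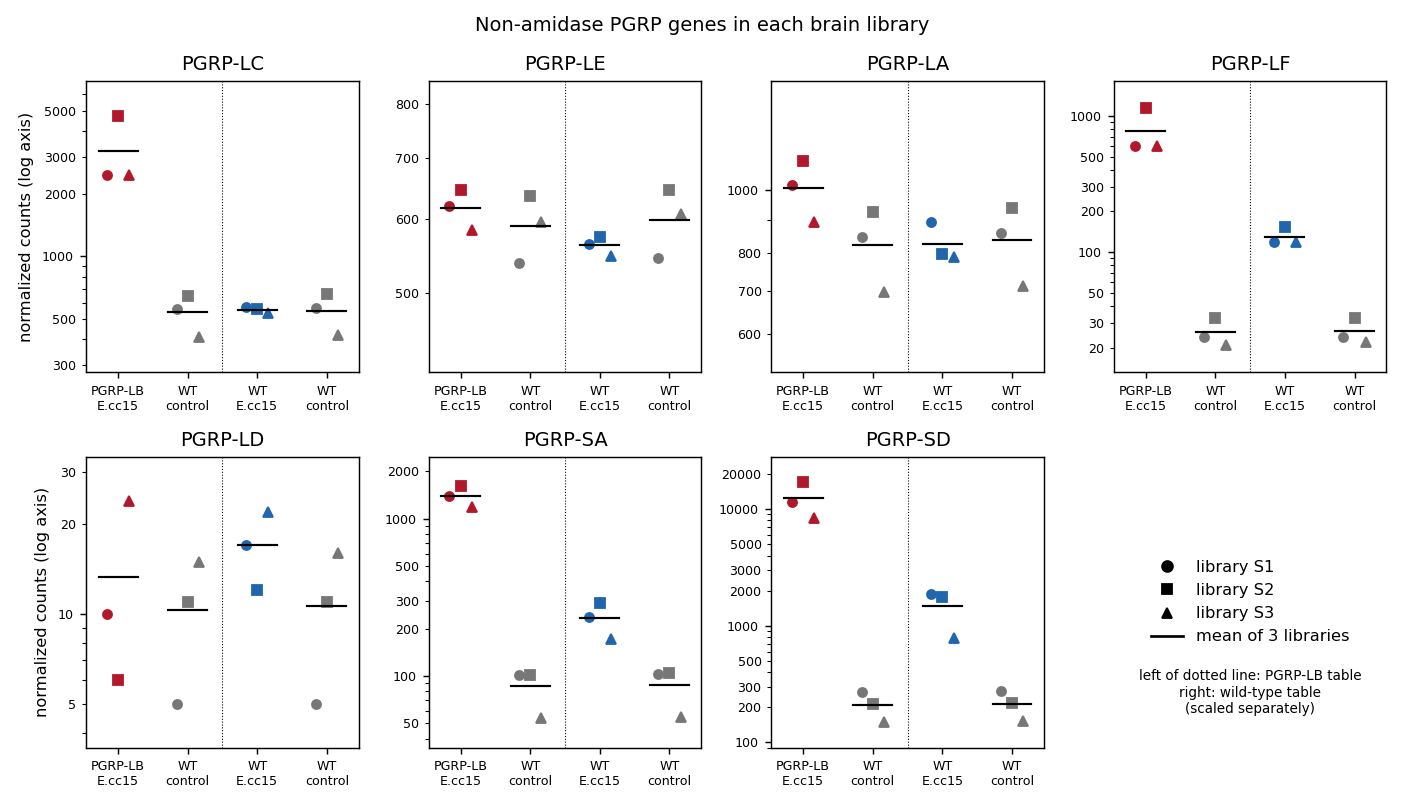
Normalized counts of the 7 genes in every library (log axes that differ between panels), with PGRP-LB E.cc15 and its WT control left of the dotted line and WT E.cc15 with its WT control right of it; symbols mark libraries and lines the mean of 3. PGRP-LC is raised in the PGRP-LB E.cc15 libraries alone (2452 to 4738, against 409 to 647 in WT control), while PGRP-LF, PGRP-SA and PGRP-SD lie above the controls in both exposed groups.

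Among the 7 genes, 4 passed the test as higher in PGRP-LB E.cc15 than in WT control and none as lower, where 9.65% of the 13384 genes tested passed as higher and 6.26% as lower (limma adjusted p under 0.05). The libraries of the 2 groups did not overlap for those same 4 genes, against 18.8% of all genes lying wholly higher. The median log2 difference was 2.53 over the 7 genes, against 0.01 over all genes. With 3 libraries against 3, an exact permutation test of a single gene cannot go below p = 0.1, and it gave that value for PGRP-LC, PGRP-LF, PGRP-SA and PGRP-SD. In WT E.cc15, 1 of the 7 was higher, against 0.122% of the 13085 genes tested (16 genes), and no gene of the table was lower in limma, where 332 genes (2.54%) were lower at an unadjusted p under 0.05 and the authors' deposited table called 17 (0.113%). PGRP-LF, PGRP-SA and PGRP-SD did not overlap between WT E.cc15 and WT control, against 6.93% of all genes lying wholly higher, and the 7 genes had a median log2 difference of 0.71, against -0.00 over all genes. Set directly against WT E.cc15 in one fit of all 9 libraries, PGRP-LC, PGRP-LF, PGRP-SA and PGRP-SD were higher in PGRP-LB E.cc15 and none of the 7 was lower, where 9.96% of genes were higher and 6.65% lower; the sizes of these 4 differences are given in the closing section.

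The authors' deposited table gave calls for the same 4 genes in the mutant comparison (9.03% of genes higher and 6.19% lower there), with folds of 5.98 for PGRP-LC, 29.8 for PGRP-LF, 16.2 for PGRP-SA and 58.7 for PGRP-SD. For WT E.cc15 the authors' deposited table called PGRP-LF (4.88-fold, adjusted p = 2.71e-10), PGRP-SA (2.67-fold, adjusted p = 0.00133) and PGRP-SD (6.85-fold, adjusted p = 2.4e-07), so 3 of the 7, where it called 0.83% of genes higher. PGRP-LC had an adjusted p of 0.999 there, in the same authors' deposited table.

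**Figure D2:**
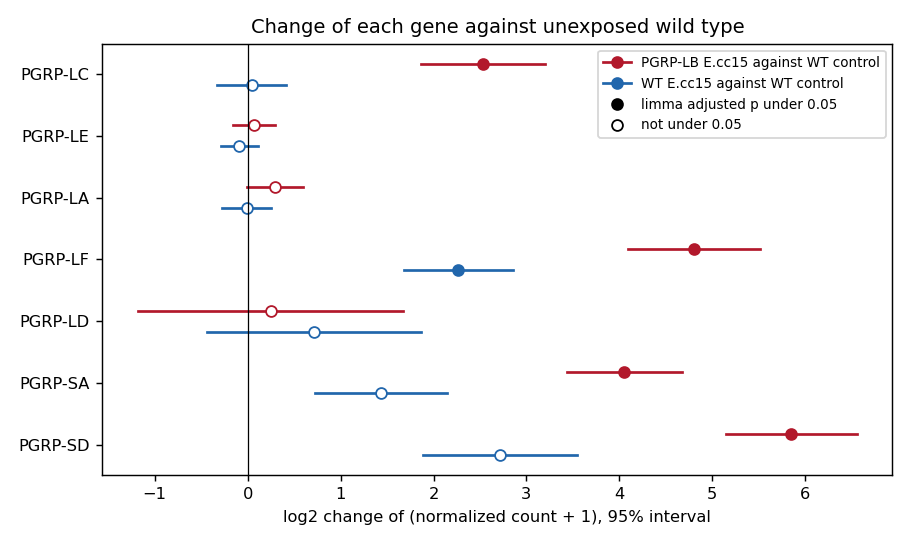
Log2 difference of each gene from WT control with its 95% interval, for PGRP-LB E.cc15 and for WT E.cc15; filled points have a limma adjusted p under 0.05. PGRP-SD, PGRP-LF, PGRP-SA and PGRP-LC are filled for PGRP-LB E.cc15, only PGRP-LF is filled for WT E.cc15, and the intervals of PGRP-LE, PGRP-LA and PGRP-LD include 0 in both.

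Ratios between 2 genes of the same library do not depend on how libraries were scaled. They were computed per kb, after the gene values had been seen, for 4 pairs in 3 comparisons, giving 12 exact two-sided permutation tests, none of which could go below p = 0.1. The ratio of decoy to receptor, PGRP-LF over PGRP-LC, was 0.679, 0.657 and 0.667 in PGRP-LB E.cc15, against 0.119, 0.141 and 0.142 in WT control. In WT E.cc15 it was 0.574, 0.755 and 0.610, against 0.117, 0.139 and 0.145 in WT control. The ratio was thus several times higher in both exposed groups, 5.01-fold and 4.82-fold (exact permutation p = 0.1 each, 0.15 adjusted over the 12 tests). Between PGRP-LB E.cc15 (0.668 ± 0.0112, SD, n = 3) and WT E.cc15 (0.646 ± 0.0960, SD, n = 3) the ranges overlapped, although both genes had higher normalized counts in every PGRP-LB E.cc15 library than in any WT E.cc15 library (1.04-fold; exact permutation p = 0.7).

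The pair of neighbours PGRP-LC and PGRP-LA behaved differently. PGRP-LC over PGRP-LA was 1.35, 2.40 and 1.54 in PGRP-LB E.cc15, against 0.369, 0.392 and 0.328 in WT control (4.71-fold; exact permutation p = 0.1, n = 3 each). In WT E.cc15 it was 0.360, 0.390 and 0.379, within the range of the controls (1.04-fold; exact permutation p = 0.7). Receptor RNA thus exceeded PGRP-LA RNA per kb only in the PGRP-LB E.cc15 libraries, and lay below it in the other 6. Against the cytoplasmic sensor, PGRP-LC over PGRP-LE averaged 2.86 ± 1.04 in PGRP-LB E.cc15, against 0.506 ± 0.1095 in WT control, and 0.546 ± 0.0146 in WT E.cc15, against 0.507 ± 0.1092 in WT control (SD, n = 3 each). PGRP-SD over PGRP-SA averaged 12.2 ± 2.56 in PGRP-LB E.cc15, against 3.52 ± 0.501 in WT control, and 8.66 ± 2.26 in WT E.cc15, against 3.52 ± 0.514 in WT control (SD, n = 3 each), with both exposed groups wholly above the controls, so the secreted pair shifted towards PGRP-SD in both exposed groups (3.45-fold and 2.42-fold; exact permutation p = 0.1 each).

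**Figure D3:**
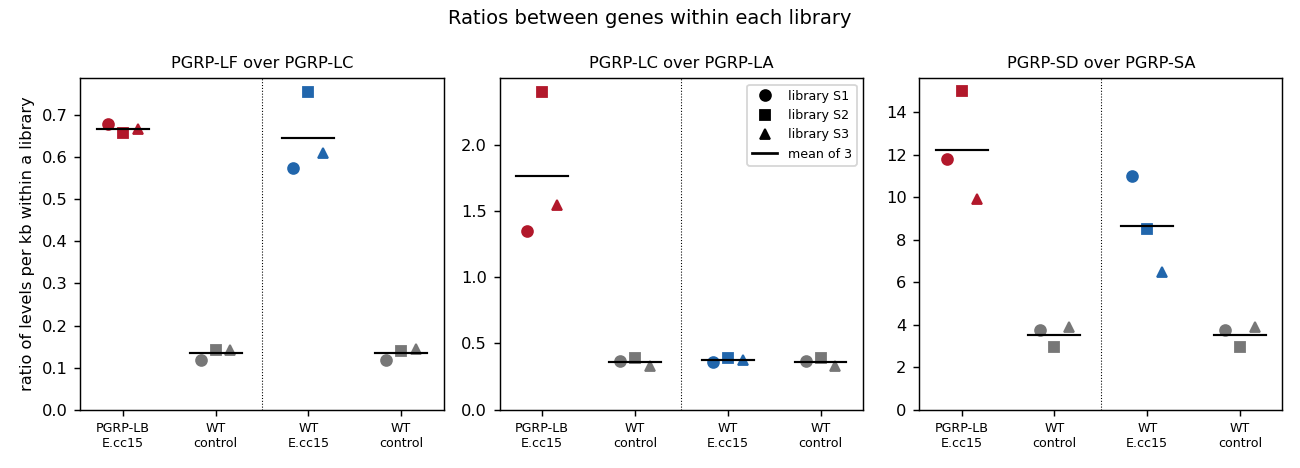
Ratio of levels per kb between 2 genes within each library, for PGRP-LF over PGRP-LC, PGRP-LC over PGRP-LA and PGRP-SD over PGRP-SA; symbols mark libraries, lines the mean of 3, and the dotted line separates the 2 tables. The first ratio overlaps between the exposed groups (0.574 to 0.755, against 0.117 to 0.145 in WT control), whereas the second is raised in PGRP-LB E.cc15 alone (1.35 to 2.40).

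The order of levels per kb of exon differed between the groups. In PGRP-LB E.cc15 it ran PGRP-SD (17140 ± 6103 normalized counts per kb), PGRP-SA (1373 ± 205), PGRP-LC (860 ± 352), PGRP-LF (572 ± 225), PGRP-LA (481 ± 51.0), PGRP-LE (298 ± 14.8) and PGRP-LD (3.37 ± 2.39), each mean ± SD over 3 libraries. There PGRP-SA and PGRP-LC, PGRP-LC and PGRP-LF, and PGRP-LF and PGRP-LA overlapped in range, and the other neighbours in the order did not. PGRP-SD lay above 99.4% of the tested genes in that group, whose median was 176.8 normalized counts per kb.

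In WT E.cc15 the order was PGRP-SD (2034 ± 816 normalized counts per kb), PGRP-LA (395 ± 27.2), PGRP-LE (271 ± 6.55), PGRP-SA (230 ± 58.6), PGRP-LC (148 ± 5.22), PGRP-LF (95.7 ± 14.3) and PGRP-LD (4.30 ± 1.26), and PGRP-LE and PGRP-SA were the neighbours whose ranges overlapped. In WT control of the same table PGRP-LA had the highest mean (399 ± 54.9 normalized counts per kb), then PGRP-SD (296 ± 85.3) and PGRP-LE (289 ± 24.6). PGRP-SD overlapped in range with both PGRP-LA and PGRP-LE. After these came PGRP-LC (146 ± 32.4), PGRP-SA (85.8 ± 27.5), PGRP-LF (19.4 ± 4.32) and PGRP-LD (2.70 ± 1.39). PGRP-LF, the decoy, was thus low in unexposed wild-type brains, below the median of 178.7 normalized counts per kb over the tested genes, and above the median of its group in PGRP-LB E.cc15.

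**Figure D4:**
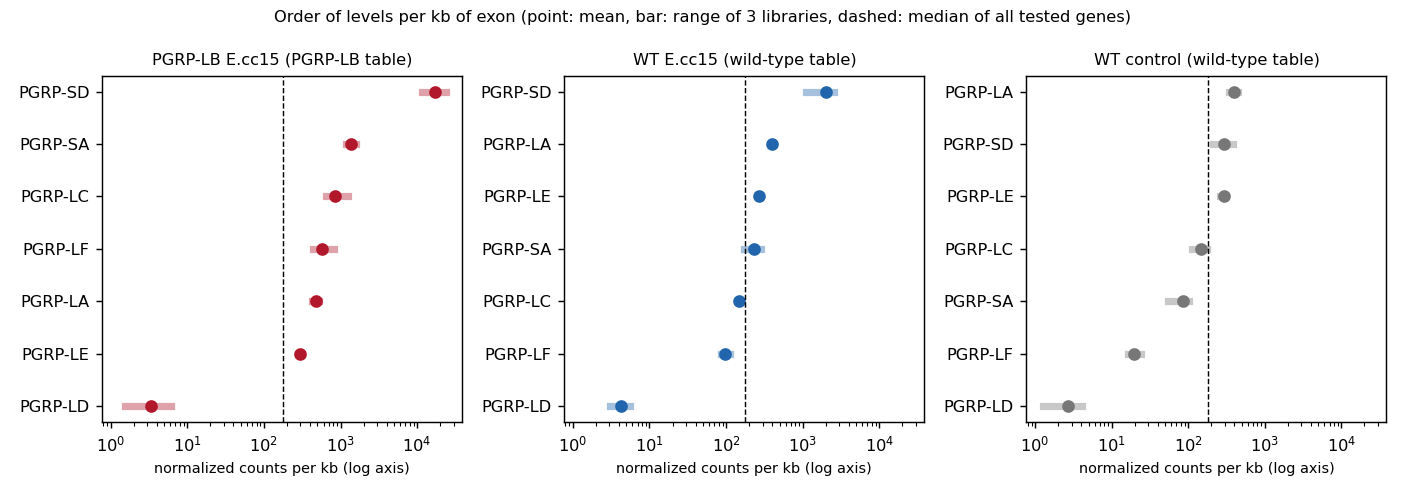
Levels of the 7 genes in normalized counts per kb of exon (log axis) in PGRP-LB E.cc15, WT E.cc15 and WT control, ordered within each panel; points are means, bars the range of 3 libraries, and dashed lines the median of all tested genes. PGRP-SD leads in both exposed groups, and PGRP-LD is last in all 3. PGRP-LA has the highest mean in WT control, where its range overlaps that of PGRP-SD.

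Seen as shares of the summed level per kb of the 7 genes, PGRP-SD made up 79.6% to 84.0% in PGRP-LB E.cc15, 51.2% to 68.7% in WT E.cc15 and 20.4% to 28.7% in WT control. PGRP-LA made up 1.87% to 2.93% in PGRP-LB E.cc15, 10.5% to 17.6% in WT E.cc15 and 30.9% to 33.1% in WT control. PGRP-LE followed PGRP-LA, with 1.11% to 1.93%, 7.24% to 12.4% and 19.9% to 28.5% in the same groups. PGRP-SA kept a share of 5.25% to 8.02% across all 9 libraries. The shares of PGRP-LA and PGRP-LE were small in exposed brains while their own levels overlapped those of WT control, so their shares moved with the sum, which PGRP-SD dominated.

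**Figure D5:**
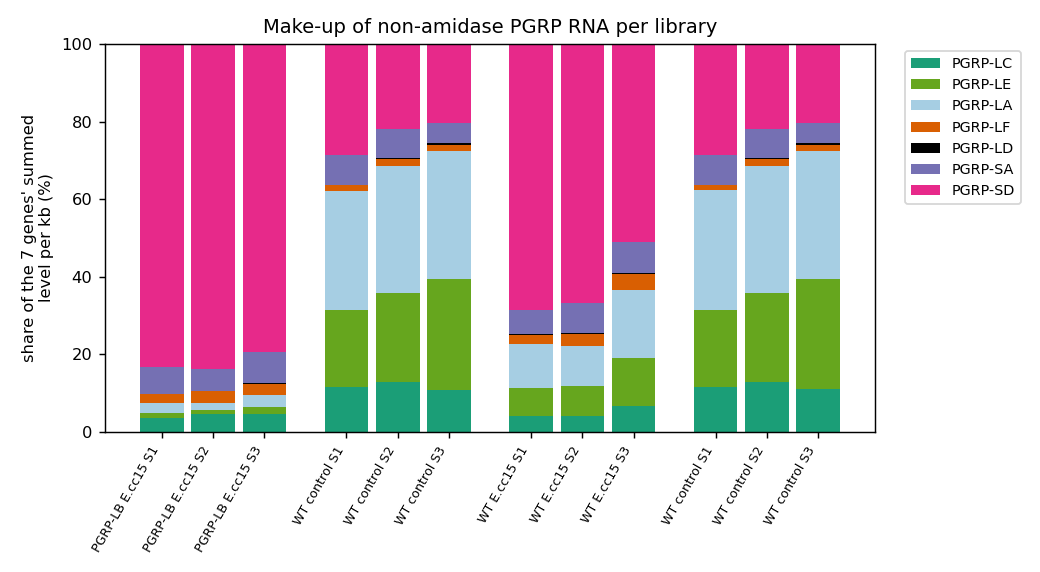
Share of each gene in the summed level per kb of the 7 genes, 1 bar per library, with PGRP-LB E.cc15 and its WT control left of WT E.cc15 and its WT control. PGRP-SD fills 79.6% to 84.0% of the bars in PGRP-LB E.cc15 and 20.4% to 28.7% in WT control, and PGRP-LA fills the largest part of the WT control bars.

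The catalytic relatives of these genes, which cut peptidoglycan, were also higher in PGRP-LB E.cc15. Of the 6 amidase PGRPs, limma called 5 higher in PGRP-LB E.cc15 than in WT control (9.65% over all genes), with a median log2 difference of 4.29. The authors' deposited table called 4 (9.03% over all genes). PGRP-LB, the mutated gene, is 1 of the 6 and was called by both limma and the authors. PGRP-SB2, the one on which they differ, had 3 to 6 normalized counts in PGRP-LB E.cc15 and was at 0 in every WT control library (adjusted p = 0.147 in the authors' deposited table). PGRP-SC2 had 5826 ± 2002 normalized counts in PGRP-LB E.cc15 and 4.33 ± 3.06 in WT control, and PGRP-SB1 had 20452 ± 12380 in PGRP-LB E.cc15 and 138 ± 50.7 in WT control (SD, n = 3 each; limma adjusted p = 6.35e-05 and 0.000173). PGRP-SC1b was nearly undetected in controls, with 82.0 ± 29.5 normalized counts in PGRP-LB E.cc15 and 0.333 ± 0.577 in WT control. In WT E.cc15, 1 of the 5 that could be tested was higher, PGRP-SB1 (18.1-fold; limma adjusted p = 0.0131), against 0.122% of all genes. That call was lost on leaving out S1 or S2 of either group. The authors' deposited table called 3 (0.83% of all genes).

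Inside the cell, most of the Imd pathway that PGRP-LC and PGRP-LE feed did not pass the test. Of its 19 tested signalling genes, 4 passed in limma as higher in PGRP-LB E.cc15 and 1 as lower, against 9.65% and 6.26% of all genes. The authors' deposited table called 4 and 2 of them (9.03% and 6.19% of all genes). In limma the median log2 difference was 0.05, against 0.01 over all genes. Rel, the pathway's transcription factor, was 7.79-fold higher (12701 ± 2229 normalized counts in PGRP-LB E.cc15, 1613 ± 40.2 in WT control; limma adjusted p = 2.5e-05). pirk, an intracellular inhibitor that removes PGRP-LC from the membrane, was 23.6-fold higher (1903 ± 415 in PGRP-LB E.cc15, 82.0 ± 29.5 in WT control; SD, n = 3; limma adjusted p = 0.000166). Charon was 2.00-fold higher (limma adjusted p = 0.00174). key, a subunit of the kinase that activates Rel, was 1.17-fold higher, and ben, a ubiquitin-conjugating enzyme, was 0.817-fold (limma adjusted p = 0.0475 and 0.0306), and leaving out 1 library ended the key call in all 6 cases and the ben call in all but that of WT control S1 (log2 0.21 to 0.27 for key and -0.34 to -0.25 for ben). In WT E.cc15, limma called Rel, 1 of the 19, against 0.122% of all genes (1.66-fold; limma adjusted p = 0.0143). That call was lost on leaving out S1 or S2 of either group. pirk differed there by a log2 of 1.46 (limma adjusted p = 0.384). The authors' deposited table called 2 of the 19 (0.83% of all genes), with pirk at 2.78-fold (adjusted p = 0.00685).

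Along the Toll pathway, fed by PGRP-SA and PGRP-SD, 10 of 18 tested genes passed in limma as higher in PGRP-LB E.cc15 and none lower. Over all genes these shares were 9.65% and 6.26%. The median log2 difference was 0.51, against 0.01 over all genes. The authors' deposited table called 11 higher and 0 lower (9.03% and 6.19% of all genes). The 4 with the smallest adjusted p were spirit, Hayan and grass, serine proteases of the blood cascade, and spz, the Toll ligand precursor. spirit averaged 1385 ± 487 normalized counts in PGRP-LB E.cc15 and 34.7 ± 21.1 in WT control (SD, n = 3; 41.1-fold; limma adjusted p = 0.000477). Hayan was 14.6-fold, grass 3.71-fold and spz 2.62-fold higher (limma adjusted p = 0.00152, 0.0036 and 0.00229). GNBP1, the partner of PGRP-SA, named after its values were seen, had 431 ± 109 normalized counts in PGRP-LB E.cc15 and 240.0 ± 30.3 in WT control (SD, n = 3; 1.77-fold). Leaving out 1 library at a time, spirit, Hayan, grass and spz kept their calls, whereas GNBP1 lost it in all cases but that of PGRP-LB E.cc15 S3, and each of the other 5 called genes lost it at least once. In WT E.cc15, limma called 0 of the 18, and the authors' deposited table also called 0 (0.122% and 0.83% of all genes higher). At an unadjusted limma p under 0.05, 3 were higher, a level whose share over all genes was not computed.

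Blood cell and fat body RNA was present in all libraries and did not move alike in the 2 exposed groups. The summed level of 13 haemocyte markers, none of them at 0, was 29274 to 59360 normalized counts in PGRP-LB E.cc15, against 44870 to 59473 in WT control, and 62279 to 79423 in WT E.cc15, against 45814 to 60467 in WT control. In limma, none of the 13 was higher in PGRP-LB E.cc15 and 4 were lower, against 9.65% and 6.26% of all genes. The 4 were PPO1 and PPO2, prophenoloxidases of crystal cells, and Col4a1 and vkg, collagen IV chains, named after their values were seen. The Col4a1 call was lost without any 1 control library and that of PPO1 without PGRP-LB E.cc15 S3. The authors' deposited table called 5 lower and 1 higher, against 6.19% and 9.03% of all genes. The 1 higher was crq, a scavenger receptor (1.28-fold, adjusted p = 0.0309 in the authors' deposited table). In WT E.cc15 all 13 lay above WT control in log2 difference, with a median of 0.52, against -0.00 over all genes. Limma called 0 of them (0.122% of all genes higher), and the authors' deposited table called 4 higher (0.83% of all genes). At an unadjusted limma p under 0.05, 6 were higher, a level whose share over all genes was not computed. Hml, a haemocyte clotting factor, had 3653 ± 1143 normalized counts in PGRP-LB E.cc15, against 4776 ± 345 in WT control. The same gene had 9974 ± 1905 in WT E.cc15, against 4857 ± 355 in WT control (SD, n = 3 each; limma adjusted p = 0.213 and 0.0542).

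The sum of 14 fat body markers was 120893, 574647 and 237828 normalized counts in PGRP-LB E.cc15 S1, S2 and S3, against 284068, 252858 and 128554 in WT control. In WT E.cc15 it was 322952, 438511 and 412212, against 287859, 257080 and 131249 in WT control. Fbp2 was at 0 in several libraries, and the other 13 were detected in all. The 2 fat body markers that passed in limma as higher in PGRP-LB E.cc15 were Fbp2 and Lsp1beta, named after their values were seen. Fbp2 was near the floor, at 5 to 9 normalized counts in PGRP-LB E.cc15, against 0 in WT control. Lsp1beta had 168 to 224, against 7 to 26 in WT control. No fat body marker passed as lower, where 9.65% of all genes were higher and 6.26% lower, and the median log2 difference of the 14 was 0.24. The authors' deposited table called 3 higher and 0 lower (9.03% and 6.19% of all genes). In WT E.cc15 limma called 0 of the 13 tested (0.122% of all genes higher), and all 13 lay above WT control in log2 difference (median 0.51, against -0.00 over all genes). Of these, the authors' deposited table called 3 higher (0.83% of all genes). At an unadjusted limma p under 0.05, 6 were higher, a level whose share over all genes was not computed. Library S2, the highest PGRP-LB E.cc15 library for PGRP-LC, PGRP-LF, PGRP-SA and PGRP-SD, also had that group's highest fat body and haemocyte sums. WT control S3, lowest of the controls for the same 4 genes, had the lowest of both sums. WT E.cc15 S3, lowest of its group for these 4 genes, had that group's highest haemocyte sum, and its fat body sum of 412212 lay between those of S1 and S2. The PGRP-LB E.cc15 library with the lowest fat body sum, S1 (120893), had 2452 normalized counts of PGRP-LC and 603 of PGRP-LF. The fat body and haemocyte sums weigh abundant genes most. In PGRP-LB E.cc15 the fat body markers Yp1, Yp2 and Yp3 averaged 60127 ± 53330, 92134 ± 93931 and 71832 ± 62968 normalized counts. Nplp2, placed here in the haemocyte list, averaged 15183 ± 11847 there (SD, n = 3 each), with 6961 to 28763 in single libraries. Whether its RNA came from haemocytes was not tested. In PGRP-LB E.cc15, limma called 9 of 15 glial markers lower and 1 higher, against 6.26% and 9.65% of all genes (median log2 difference -0.37). In WT E.cc15 it called 0 of the 15, with 1 higher and 1 lower at an unadjusted p under 0.05. At that level 2.54% of all genes were lower, and the share higher was not computed. The authors' deposited table called 0 there. Gut marker sums were low, 94 to 315 normalized counts in PGRP-LB E.cc15, against 27 to 198 in WT control. Of 13 tested there, limma called 2 higher and 1 lower (9.65% and 6.26% of all genes). The authors' deposited table called 2 and 0 (9.03% and 6.19%). In WT E.cc15 S1, S2 and S3 the gut sums were 550, 427 and 30, against 201, 27 and 38 in WT control, and S3 was also the lowest of that group for PGRP-SD and PGRP-SA. Limma called 0 of 13 gut markers in WT E.cc15. The part of fat body, blood cells, glia and gut in the differences was not tested.

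The genes whose levels followed each member most closely over the 9 libraries were sought among 10349 genes, as a description by Pearson's r on the log2 scale. The libraries fall into 3 groups, which all of these genes share. PGRP-SD was followed most closely by DptA (r = 0.993), Dro (0.991) and AttC (0.991), all antimicrobial peptide genes, and PGRP-LF by Dro (0.992), yin (0.991) and DptA (0.991). PGRP-SD was among the 6 closest genes to PGRP-LF (r = 0.987). DptA averaged 89068 ± 39730 normalized counts in PGRP-LB E.cc15, against 30.0 ± 7.81 in WT control. In WT E.cc15 DptA averaged 2150 ± 1163, against 31.0 ± 7.81 in WT control (SD, n = 3 each).

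PGRP-LC had other companions, Rho1 (r = 0.994), Mal-B2 (0.994) and CG9928 (0.992), and its likeness to PGRP-LF was lower (r = 0.886). Mal-B2, a maltase, averaged 8562 ± 2559 normalized counts in PGRP-LB E.cc15 and 1163 ± 348 in WT control (SD, n = 3 each; limma adjusted p = 0.00079). In WT E.cc15 it averaged 1382 ± 124 and in its WT control 1182 ± 352 (SD, n = 3 each; limma adjusted p = 0.805). Mal-B2 was picked for its likeness to PGRP-LC over these same libraries, so a like outcome of the tests is no separate result. PGRP-SA was followed by CG3505 (r = 0.993), Rac2 (0.991) and CG4269 (0.991). PGRP-LA was closest to SmydA-2 (r = 0.979), Trp1 (0.955) and CG12159 (0.949), PGRP-LE to CG2321 (0.951), Cht10 (0.908) and Ttc30 (0.903), and PGRP-LD to CG43795 (0.947), kmr (0.937) and Prosap (0.919).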

How the data were processed

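Poly(A)-selected stranded libraries were sequenced in 1 lane as 2 x 100 bases, and HISAT2, HTSeq, featureCounts and DESeq2 are named per the submitters' processing notes; genome build: not given in the sources used here. Whether counting used the strand is likewise not given. The values the authors deposited are a score, gene counts normalized by the authors within each table and rounded to whole numbers; the same WT control libraries differ between the tables by a constant ratio each. The authors' deposited table also holds their fold ratio, its log2 value, and p-values with adjusted p-values, which are quoted as theirs.

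Because the values are not raw counts, limma-trend (limma 3.58.1, R 4.3.3) was fitted per table to log2 values with a pseudocount of 1, keeping genes whose mean reached 1, two-sided, with Benjamini-Hochberg adjustment over all genes and a threshold of 0.05, in place of a count model. The fits and the depth estimate were tested on simulated data with known answers. One normalized count stood for 0.732 to 1.14 reads, by that estimate. Columns are marked S1 to S3, matching no replicate number of the labels, so libraries keep those marks; p-values measure the spread between these pools of 20 brains. Exon lengths came from the BDGP6 annotation and were matched for 12770 of 13384 and 12483 of 13085 tested genes. PGRP-LB E.cc15 was compared with WT E.cc15 in one fit of all 9 libraries on a common scale (closing section).

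Genes named in the text were the 7 members; PGRP-LB, Rel, pirk and DptA; per pathway list and comparison up to 4 called genes with the smallest adjusted p; Hml, NimC1, Lsp2 and Fbp1 as markers; and per member the 3 genes with the highest Pearson's r. The members and lists were chosen with earlier results of these data known. In limma NimC1, Lsp2 and Fbp1 passed in neither comparison with WT control; for WT E.cc15 the authors' deposited table called NimC1 (2.09-fold, adjusted p = 0.000687) and Lsp2 (9.23-fold, adjusted p = 0.0265). For PGRP-LB E.cc15, limma called 14 of 14 antimicrobial peptide genes higher (9.65% over all genes). For WT E.cc15 it called 7 of 14 (0.122% over all genes), with a median log2 difference of 5.13 over the 14. All 14 were higher there at an unadjusted limma p under 0.05, a level whose share over all genes was not computed. The authors' deposited table called 14 of 14 higher in each comparison (9.03% and 0.83% over all genes). Planned comparisons of protein and promoter sequences were not run. Alternatives covered pseudocount, filter, scaling, variance model, the 9-library fit and leaving out each library.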

Additional observations from a re-analysis of the deposited data

Results flagged for a closer look

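Exposed mutant and exposed wild-type brains differed in 4 of the 7 genes when PGRP-LB E.cc15 was set directly against WT E.cc15 in one fit of all 9 libraries. PGRP-LC differed by 2.50 ± 0.25 on the log2 scale (SE; 5.64-fold higher in PGRP-LB E.cc15; limma adjusted p = 0.000202). PGRP-LF differed by 2.55 ± 0.27 (5.84-fold; limma adjusted p = 0.000296), PGRP-SA by 2.63 ± 0.27 (6.19-fold; limma adjusted p = 0.000233) and PGRP-SD by 3.15 ± 0.37 (8.85-fold; limma adjusted p = 0.000484). In each of these genes all 3 PGRP-LB E.cc15 libraries lay above all 3 WT E.cc15 libraries. Of all 13219 genes tested, 21.5% lay wholly higher in this way, 9.96% passed the limma test as higher and 6.65% passed as lower. PGRP-LE (log2 0.17), PGRP-LA (0.32) and PGRP-LD (-0.46) did not pass the test (limma adjusted p = 0.208, 0.104 and 0.627). The 2 tables were scaled separately, and the factors that brought them to a common scale were between 0.991 and 1.02. In the same fit none of the 13 haemocyte markers was higher and 7 were lower in PGRP-LB E.cc15 (median log2 -1.03). Over all genes 6.65% were lower, and no fat body marker was called either way. Of 15 glial markers 7 were lower and 1 higher (median log2 -0.28), and of 14 tested gut markers 1 was higher and none lower; the part of these cells in the differences was not tested.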

How the results depend on the processing

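Of 266 values for the 7 genes under alternatives, 247 kept direction and side of the threshold. In PGRP-LB E.cc15 against WT control, PGRP-LC (2.21 to 2.69), PGRP-LF (4.50 to 4.98), PGRP-SA (3.75 to 4.21) and PGRP-SD (5.59 to 6.10) kept their calls under all 15 alternatives. PGRP-LD turned to -0.18 under quantile normalization, which shifted the median of all genes by -0.10, and spanned -0.26 to 0.66 when single libraries were left out. Over the whole table, 1292 genes were higher and 838 lower (60.7% higher), against 1054 and 1298 under quantile normalization (44.8% higher); lower calls numbered 519 without the variance trend and 1290 in the 9-library fit. Leaving out 1 library gave 742 to 1059 higher and 387 to 673 lower.

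In WT E.cc15 against WT control, the calls among the 7 numbered 2 under quantile normalization, 2 under upper-quartile scaling, 2 in the 9-library fit, 0 without the variance trend and 0 to 1 with 1 library left out. PGRP-LF was 2.27 without the variance trend (adjusted p = 0.0879) and 2.15 to 2.44 with 1 library left out. PGRP-SD passed the threshold under quantile normalization (2.69, adjusted p = 0.0459), upper-quartile scaling (2.72, 0.0419) and the 9-library fit (2.71, 0.0249), and spanned 2.49 to 3.11 with 1 library left out. PGRP-LC spanned -0.14 to 0.19 and PGRP-LA -0.12 to 0.078 in those fits. The whole table had 16 genes higher, 0 without the variance trend, 28 in the 9-library fit and 0 to 19 with 1 library left out. PGRP-LB E.cc15 against WT E.cc15 gave 1317 higher and 879 lower, and 813 to 1013 and 535 to 674 with 1 library left out. The cause of these shifts was not tested.

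No paired analysis was possible because the groups compared share fewer than 2 replicate numbers and the columns carry none. With 3 libraries a group, small changes of PGRP-LE and PGRP-LA, and larger ones of PGRP-LD within its wide intervals, were at the limit of detection.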
